A study of Saccharomyces cerevisiae with 6 samples.

Results

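The mitochondrial ribosome of budding yeast was followed through the transcripts of its nuclear-encoded proteins. Members were the genes whose platform symbol begins with MRPL or MRPS, or is MRP or RSM followed directly by a number, without MRP8. The rule itself used no measured value, but the members were chosen with earlier results of these data known. The rule took 65 of the 5449 genes on the array, each with 1 probe set. Of these, 37 were assigned to the large subunit and 28 to the small subunit. MRP7, MRP20 and MRP49 belong to the large subunit in spite of their names. The subunit of 64 members matched the one in the systematic ribosomal protein names of the R64 gene table. RSM22 had no such name and was counted in the small subunit without that check.

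The cells were Saccharomyces cerevisiae BY4741, a haploid laboratory strain that needs histidine, leucine, methionine and uracil. In the PI3K group, transformants made p110α-CAAX, a mammalian phosphoinositide 3-kinase subunit that carries the catalytic site, with a motif for membrane attachment, from a galactose-driven construct. In the KD group they made the same protein with the substitution K802R, which leaves the kinase inactive. Both groups were shifted from raffinose medium to 2% galactose at 30 °C for 4 h, with 3 biological replicates in each and 1 Affymetrix array per replicate, so all cultures share the carbon source and the induction.

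Mitochondrial ribosomes translate the few proteins encoded in mitochondrial DNA, most of them subunits of the respiratory chain and of ATP synthase. In yeast nearly all of their proteins are encoded in the nucleus, made in the cytosol and imported, while the ribosomal RNAs are made inside the organelle. The large subunit forms peptide bonds and holds the exit tunnel, and the small subunit reads the messenger RNA. Some of these proteins have relatives in bacterial ribosomes, and others occur in mitochondrial ribosomes alone.

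Array medians lay between log2 values of 9.49 and 9.54, and precision is limited by having 3 arrays in each group. The a-cell genes MFA1, MFA2, STE2, STE6 and BAR1 had values of 10.23 to 12.85, the alpha-factor genes MF(ALPHA)1 and MF(ALPHA)2 of 4.32 to 5.86 and STE3, the pheromone receptor gene of alpha cells, of 6.80 to 8.09. STE3 stood at 7.85, 7.56 and 8.09 in PI3K and 6.80, 6.88 and 7.26 in KD, without overlap, a log2 difference of 0.85 (SE 0.18, limma adjusted p = 0.145). Log2 fold changes of the galactose genes GAL1, GAL7 and GAL10 were -0.02, 0.17 and -0.02. Their values of 13.64 to 14.17 lay near the top of the scale, where the lowest array maximum was 14.51. Equal induction therefore cannot be judged from them. The arrays also differed within groups. Once each gene's group means were removed, the first principal component held 70.4% of the variance and set PI3K 1, PI3K 3 and KD 3 (side A) against PI3K 2, KD 1 and KD 2 (side B). No label names a batch, and the sides come from the measured values, members included. Each side holds a lone array of one group, so differences within a side have no replicate check.

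Transcripts of the mitochondrial ribosome differed little between active and inactive kinase. All 65 members were well within the range tested, with values from 8.28 to 12.16 over the 6 arrays, and all passed the filter on low values. Their median log2 fold change, PI3K minus KD, was 0.02, with 35 members higher and 30 lower, beside a median of 0.00 over all 5350 genes tested. Member differences ran from -0.30 to 0.49, and none of the 65 reached 1.5-fold, where 236 of all genes (4.41%) did. The median size of a difference, whatever its sign, was 0.11 for members and 0.16 for all genes. As the RNA came from whole cultures, a change in fewer cells and a smaller change in every cell cannot be told apart.

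No member passed an adjusted p of 0.05 in limma, where 13 of 5350 genes (0.243%) did, and the lowest adjusted p of a member was 0.176. At an unadjusted p under 0.05, 3 members were higher (4.62%) and 0 lower, where 7.94% of all genes were higher and 6.58% lower. The groups did not overlap for 4 members, all higher in PI3K, against 10.2% of all genes higher and 10.5% lower. The 95% interval of the log2 fold change lay inside a 2-fold change in either direction for 63 of 65 members, and for 90.8% of all genes. MRPL4 and MRPS35 were the exceptions, with upper bounds of 1.03 and 1.13. Weighting the arrays by their estimated quality gave 32 called members, 16 higher and 16 lower, in a fit that called 52.5% of all genes and whose weights stopped short of convergence.

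**Figure D1:**
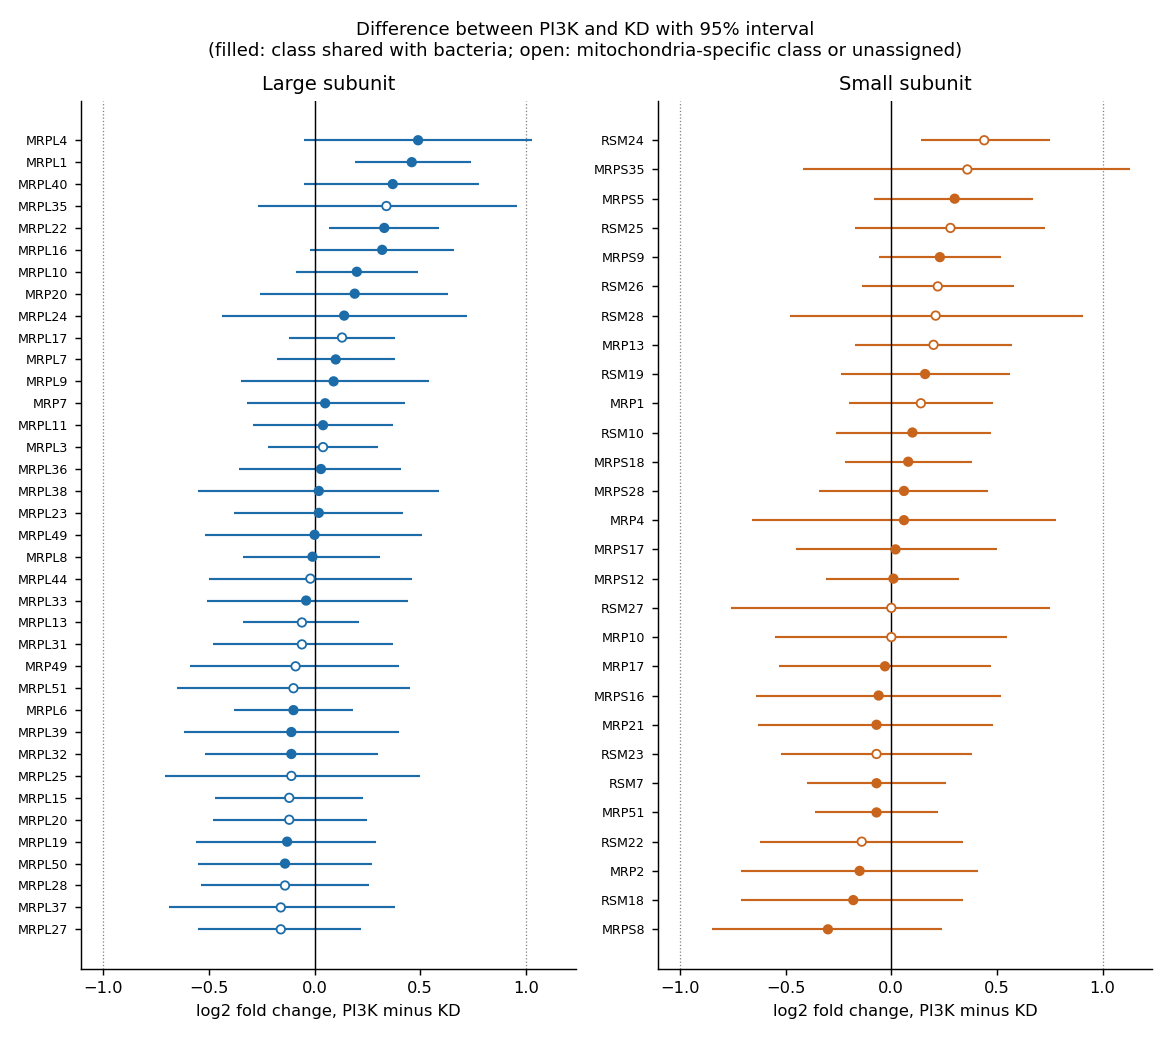
Log2 fold change of each member, PI3K minus KD (horizontal axis), for the 37 large subunit genes on the left and the 28 small subunit genes on the right. Points are limma estimates, filled for proteins with bacterial relatives and open for the others, bars are 95% intervals, dotted lines mark a 2-fold change, and only the bars of MRPL4 and MRPS35 cross one.

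Of the large subunit, MRPL1 had the smallest p. It encodes the relative of bacterial L1, a protein of the stalk beside the tRNA exit site. Its log2 values were 10.61, 10.60 and 10.47 on PI3K 1 to 3 and 10.08, 9.98 and 10.22 on KD 1 to 3. The groups did not overlap, and the means of 10.56 ± 0.08 (SD, n = 3) and 10.10 ± 0.12 differed by 0.46 (SE 0.12, 1.38-fold, limma adjusted p = 0.176). On side A alone PI3K exceeded KD by 0.32, and on side B alone by 0.57.

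MRPL22, whose product lines the peptide exit tunnel, had values of 10.78, 10.87 and 10.65 in PI3K and 10.40, 10.48 and 10.42 in KD. All PI3K arrays were above all KD arrays, by 0.33 on average (SE 0.11, adjusted p = 0.249), with 0.29 within side A and 0.43 within side B. MRPL16, the relative of bacterial L16, was similar in size at 0.32 (SE 0.14), although PI3K 3 at 10.96 lay just under KD 1 at 10.98.

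The largest difference among all members was that of MRPL4, which encodes a protein near the mouth of the exit tunnel. Its values were 9.84, 9.28 and 9.88 in PI3K and 8.91, 9.06 and 9.56 in KD, so the groups overlapped. Its log2 fold change was 0.49 (SE 0.23, adjusted p = 0.396), and it was 0.30 within each side. MRPL40, the relative of bacterial L24, stood at 0.37 (SE 0.17), with 0.01 within side A and 0.55 within side B. MRPL35, a protein of mitochondrial ribosomes alone, had values of 10.72, 10.10 and 10.72 in PI3K and 9.89, 9.97 and 10.65 in KD. Its 3 high arrays were those of side A, whichever the group, and its log2 fold change was 0.34 (SE 0.26).

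At the other end of the large subunit stood MRPL27 and MRPL37, both specific to mitochondrial ribosomes, each at -0.16 (SE 0.16 and 0.23). MRPL27 read 10.91, 11.34 and 10.90 in PI3K and 11.39, 11.13 and 11.11 in KD, with overlapping groups. MRPL50 and MRPL28 were each at -0.14, and MRPL19, the relative of bacterial L11, at -0.13. Adjusted p-values of these members were 0.736 or more.

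In the small subunit RSM24, a mitochondria-specific protein gene, had the smallest p. It gave 10.48, 10.53 and 10.35 in PI3K and 9.85, 9.99 and 10.18 in KD. The groups did not overlap, and the log2 fold change was 0.44 (SE 0.13, 1.36-fold, adjusted p = 0.209), with 0.23 within side A and 0.61 within side B. MRPS5, the relative of bacterial S5, had 9.71, 10.02 and 9.60 in PI3K and 9.59, 9.57 and 9.27 in KD. Here the lowest PI3K value was only just above the highest KD value, and the log2 fold change was 0.30 (SE 0.16, adjusted p = 0.455), with 0.38 and 0.44 within sides A and B. RSM25 (0.28, SE 0.19) and MRPS9 (0.23, SE 0.12), the relative of bacterial S9, had overlapping groups.

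MRPS35 varied more than any other member within groups. Its values were 9.63, 9.19 and 9.60 in PI3K and 8.76, 8.70 and 9.89 in KD, so the highest and the lowest value were both KD arrays. Its log2 fold change was 0.36 (SE 0.33), against -0.27 on side A alone and 0.46 on side B alone. RSM27 came next in spread, with 10.27, 10.79 and 10.16 in PI3K and 10.86, 10.66 and 9.72 in KD. Its group means were equal at 10.41, and the interval of its difference ran from -0.76 to 0.75.

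The lowest difference of any member was that of MRPS8, the relative of bacterial S8, which in Escherichia coli binds ribosomal RNA early in assembly. It read 10.14, 10.69 and 10.07 in PI3K and 10.90, 10.68 and 10.23 in KD. The groups overlapped, and the log2 fold change was -0.30 (SE 0.23, adjusted p = 0.623), with -0.13 within side A and -0.10 within side B. RSM18 (-0.18), MRP2 (-0.15), RSM22 (-0.14), which encodes a protein related to methyltransferases, and MRP21 (-0.07) were the next lowest of those named. MRPS12, the relative of the S12 protein at the decoding centre, differed by 0.01 (SE 0.13).

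**Figure D2:**
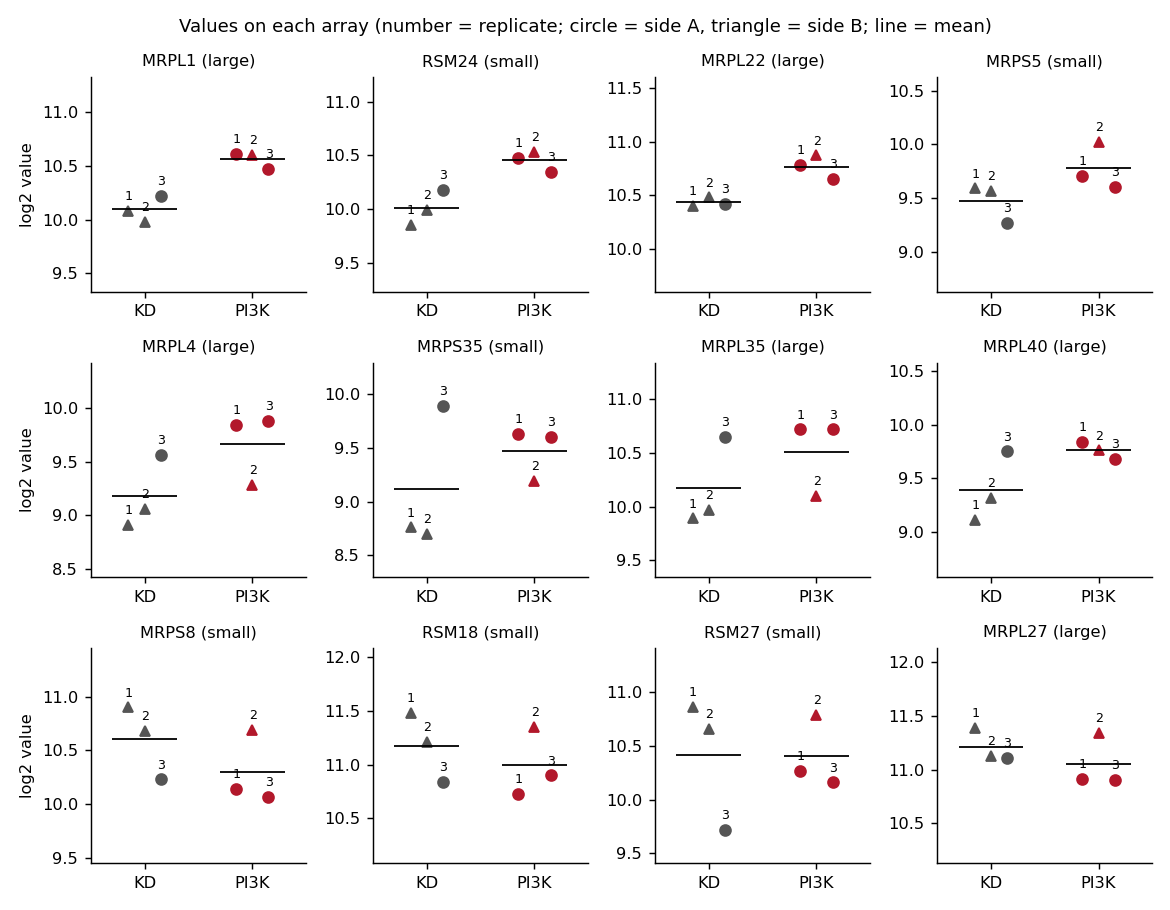
Log2 values of 12 members on each array (vertical axis, 2 log2 units in every panel), with KD in grey and PI3K in red, the replicate number at each point, circles for side A, triangles for side B and a line at each group mean. In the top row the groups do not overlap. In the middle row KD 3 is the highest KD array, and in MRPS8, RSM18 and RSM27 it is the lowest.

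The large and the small subunit were set side by side on each array, as the median over members of the difference from each gene's KD mean. For the large subunit these medians were -0.07, 0.21 and -0.14 on PI3K 1 to 3 and 0.16, -0.01 and -0.10 on KD 1 to 3. For the small subunit they were -0.01, 0.25 and -0.06 in PI3K and 0.10, 0.02 and -0.16 in KD. Both subunits were highest on PI3K 2 among the PI3K arrays and on KD 1 among the KD arrays, and the groups overlapped for each.

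The large minus small median was -0.06, -0.04 and -0.08 on the PI3K arrays and 0.06, -0.03 and 0.06 on the KD arrays. The PI3K values were lower by 0.09 on average and did not overlap with KD, with PI3K 2 and KD 2 close together. By gene, the median log2 fold change was 0.00 for the large subunit, with 18 of 37 higher, and 0.04 for the small, with 17 of 28 higher. That difference of -0.04 was 0.00 within side A and -0.13 without KD 3. No test was made of it, since members are not replicates of a condition.

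The classes of protein split the subunits further. In the large subunit, 15 of 23 genes with bacterial relatives were higher, with a median of 0.04, and 3 of 14 mitochondria-specific genes, with a median of -0.10. In the small subunit, 9 of 17 genes with bacterial relatives were higher, with a median of 0.01, and 8 of 10 mitochondria-specific genes, with a median of 0.21. On single arrays the last class had medians of 0.15, 0.34 and 0.13 in PI3K and -0.06, -0.03 and 0.08 in KD. Its groups did not overlap, with PI3K 3 and KD 3 close together, while those of each other class overlapped. The mitochondria-specific classes thus lay on opposite sides of 0 over all arrays, but not within the array sides. Within sides A and B the large subunit class had medians of 0.07 and 0.09, and the small subunit class of 0.16 and 0.36. These classes also differed in gene length, with medians of 459 bp in the large and 963 bp in the small subunit. With a smooth trend of gene length taken out of each array their medians were -0.09 and 0.06. Members of both subunits together were also cut into 3 groups by length. In the longest, middle and shortest group, genes with bacterial relatives had medians of 0.20, 0.03 and -0.09. Mitochondria-specific genes had 0.20, -0.06 and -0.10. The part of length in the differences between classes was not tested.

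**Figure D3:**
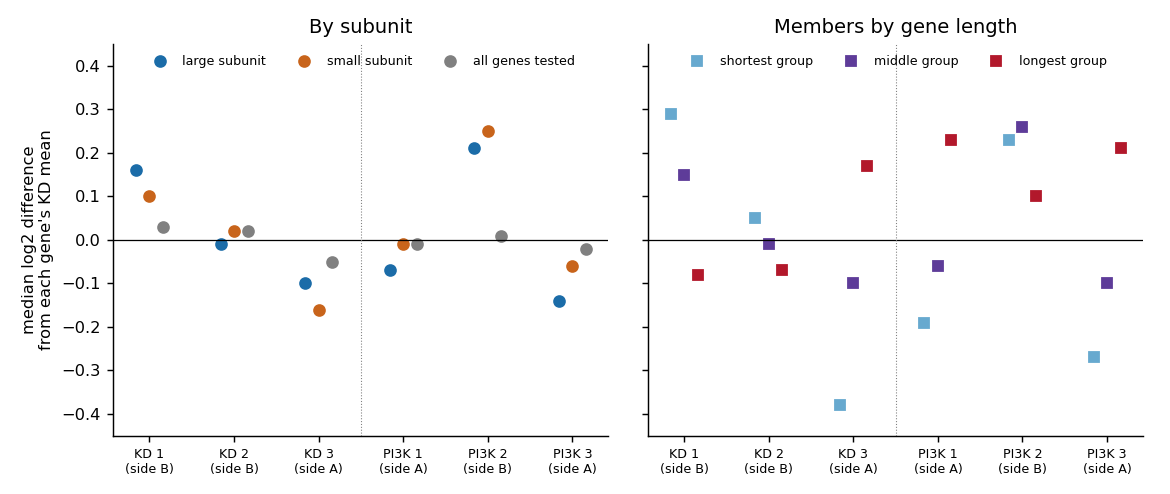
Median over genes of the log2 difference from each gene's KD mean (vertical axis), for each array (horizontal axis, with its side), by subunit beside all genes tested on the left and by gene length within the members on the right (3 groups of 21 or 22 genes). PI3K 2 and KD 1 are high for both subunits, and the shortest group of members is lowest on KD 3 at -0.38 while the longest group there is at 0.17.

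In the median, members differed more between array sides than between kinase groups. The sides were picked from these values, members included, as the main split within groups, so this order was favoured in advance. After removal of the group means, 36 of 65 members were lower on all side A arrays than on all side B arrays, and 9 were higher on all of them, where 27.6% and 19.6% of all genes were. The median difference between sides, A minus B, was -0.30 for members and -0.06 for all genes. It was negative for 48 of 65 members and for 3102 of all 5350 genes. MRP4, the relative of bacterial S2, was at 0.80, with 10.10, 9.31 and 10.22 in PI3K and 9.62, 9.53 and 10.33 in KD. MRPS35 (0.79), MRPL35 (0.67), RSM28 (0.66) and MRPL4 (0.58) also stood higher on side A. RSM27 (-0.81), MRPL25 (-0.62), MRPL24 (-0.60), MRPS16 (-0.60) and MRP2 (-0.59) stood lower there. Side and kinase are partly mixed, as 2 of the 3 PI3K arrays and 1 of the 3 KD arrays are on side A.

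Gene length ran along with the array side. Members, here in 3 groups by length, range from MRPL39 at 213 bp to RSM22 at 1887 bp. In the shortest group (22 genes, up to 477 bp) all 22 were lower on side A, with a median of -0.51. In the middle group 20 of 22 were lower, with a median of -0.26. In the longest group (21 genes, from 846 bp) 6 of 21 were lower, with a median of 0.12, and RSM22, the longest of all, was among the 6 at -0.48. All genes tested were cut at the same bounds, with no upper limit on the longest group, which held 3830 of them. In these groups 90.7%, 81.8% and 47.2% were lower on side A, in the same order, with medians of -0.37, -0.21 and 0.02. Across the 65 members, which share the same 6 arrays, Spearman's rho between length and the side difference was 0.75 (Pearson's r with log2 length 0.67). Across all genes it was 0.15, but their lengths differ from those of members, with medians of 1248 bp and 714 bp.

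Over all 6 arrays the difference between PI3K and KD also followed length among members. In the shortest group 4 of 22 members were higher in PI3K, with a median log2 fold change of -0.10, in the middle group 13 of 22 (0.03) and in the longest group 18 of 21 (0.20). Within side A 15, 14 and 14 were higher, in the same order, with medians of 0.11, 0.07 and 0.07. Within side B 17, 21 and 15 were, with medians of 0.06, 0.19 and 0.29. Short members were thus mostly lower in PI3K over all arrays, but not within either side. Over all arrays, all 10 large subunit genes of the longest group were higher, and 1 of the 13 of the shortest group. In the small subunit 8 of 11 genes of the longest group were higher, and 3 of 9 of the shortest. Spearman's rho between length and log2 fold change was 0.56 over members (0.73 in the large and 0.31 in the small subunit) and -0.29 over all genes. Within side A it was -0.15 over members (0.00 in the large and -0.40 in the small subunit) and -0.12 over all genes. Within side B it was 0.30 over members (0.50 in the large and 0.08 in the small subunit) and -0.52 over all genes. All genes cut at the same bounds, with no upper limit on the longest group, had medians of -0.02, 0.06 and -0.01.

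**Figure D4:**
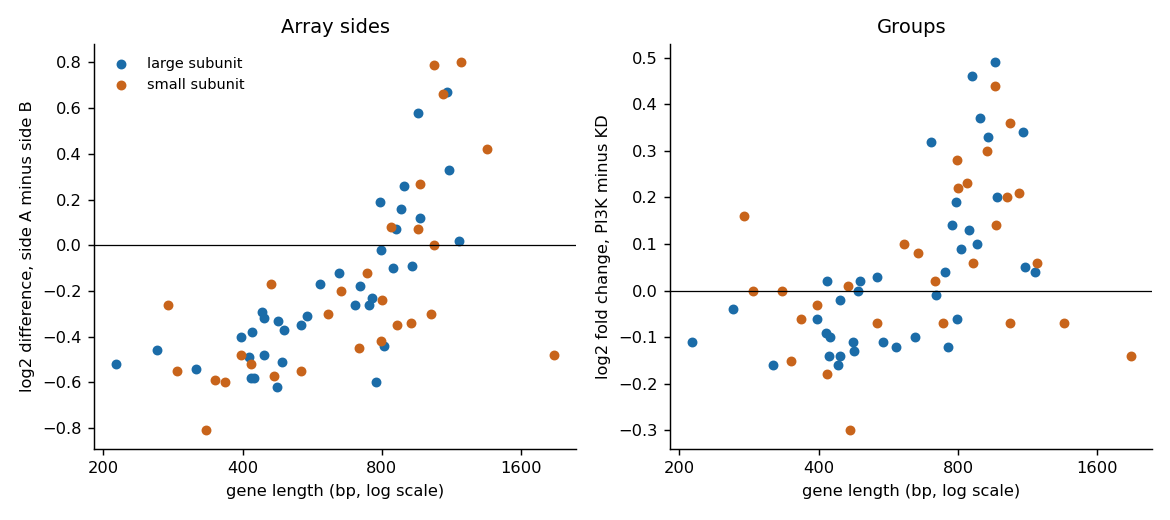
Gene length in bp on a log scale (horizontal axes) against the log2 difference of side A minus side B (left) and the log2 fold change of PI3K minus KD (right), 1 point for each of the 65 members, in blue for the large and orange for the small subunit. All members up to 477 bp lie below 0 on the left, and 18 of the 21 longest lie above 0 on the right.

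With the array side as a covariate, the median log2 fold change of members was 0.12, with 48 of 65 higher, beside 0.01 over all genes. No member passed in that limma fit, which called 3.46% of all genes. At an unadjusted p under 0.05, 11 members were higher (16.9%) and 0 lower, where 14.5% of all genes were higher and 11.1% lower. MRPS5 led them with 0.41 (SE 0.09, adjusted p = 0.0562), followed by MRPL1 (0.44, adjusted p = 0.0674), MRPL16 (0.41, adjusted p = 0.0734) and MRPL22 (0.36, adjusted p = 0.0800). Since the side was found from the same values, these p-values are too small by an unknown amount. Within side A 43 members were higher and within side B 53, with medians of 0.07 and 0.14, and 37 members were higher on both sides and 6 lower on both. Of all 5350 genes, 3047 were higher within side A and 2539 within side B, with medians of 0.05 and -0.02, and 1767 were higher and 1529 lower on both.

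Ribosomal proteins of mitochondria that carry other names were close to the members. Of 8 in the large subunit 3 were higher, with a median log2 fold change of -0.06, and of 6 in the small subunit 1 was higher, with a median of -0.04. None passed the test. RML2, the relative of bacterial L2 at the peptidyl transferase centre, was at 0.24 (SE 0.19) and IMG2 at -0.23 (SE 0.22). NAM9, the relative of bacterial S4, gave 9.75, 9.63 and 9.93 in PI3K and 9.94, 9.97 and 10.21 in KD. All its PI3K values were below all KD values, and its log2 fold change was -0.27 (SE 0.13, limma adjusted p = 0.421), with -0.37 within side A and -0.33 within side B. EHD3 was at -0.05 (SE 0.14). VAR1, the small subunit protein encoded in mitochondrial DNA, and MRP35 were not analysed here.

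The machinery that works with the mitochondrial ribosome showed no called gene either. Of 9 translation factors 7 were higher, with a median of 0.14. The elongation factor gene TUF1 was at 0.30 (SE 0.23) and the release factor gene MRF1 at 0.14 (SE 0.10). Of 14 aminoacyl-tRNA synthetases of mitochondria 8 were higher, with a median of 0.03. By p, MSF1 for phenylalanine (0.32, SE 0.18) and MSD1 for aspartate (-0.18, SE 0.11) came first, although neither passed.

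Assembly factors of the ribosome and enzymes that modify its RNA, 7 in all, had a median of 0.05. MRH4, an RNA helicase of large subunit assembly, gave 7.92, 8.04 and 8.06 in PI3K and 8.40, 8.40 and 8.33 in KD. Its groups did not overlap, and its log2 fold change was -0.37 (SE 0.10, adjusted p = 0.208), with -0.34 and -0.36 within the sides. MRM2, which methylates the large ribosomal RNA, went the other way by 0.33 (SE 0.12, adjusted p = 0.270), with 0.32 and 0.43. These had about the same size on either side.

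Of 4 proteins that tie the ribosome to the inner membrane 3 were higher, with a median of 0.11. MBA1, a membrane receptor of the ribosome, read 10.41, 10.36 and 10.42 in PI3K and 10.03, 10.18 and 10.14 in KD, without overlap, a difference of 0.28 in log2 (SE 0.10, adjusted p = 0.283). MDM38, which also binds the ribosome at the membrane, was the lower one at -0.14 (SE 0.14). Translational activators, which help single mitochondrial messenger RNAs onto the ribosome, had a median of -0.09, with 5 of 16 higher. ATP22, which acts on the messenger RNA of an ATP synthase subunit, was at 0.50 (SE 0.12), from 7.41, 7.35 and 7.22 in KD to 7.77, 7.76 and 7.96 in PI3K. Its groups did not overlap, its adjusted p was 0.162, and it stood 0.65 higher in PI3K on side A and 0.38 higher on side B. PET494, an activator for a cytochrome oxidase subunit, was at -0.24 (SE 0.11).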

How the data were processed

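Total RNA of 6 yeast cultures was hybridised to 1-colour Affymetrix arrays, per the labels' protocols. The deposited values are GCRMA summaries, per the submitters' processing notes (no version), and are taken as log2 values, since the authors state no log base and they run from 2.49 to above 14 on each array. Of 5716 probe sets 5498 had 1 gene in the platform annotation, 0 several and 218 none; symbols were updated by gene identifier to the R64 table, where all 5498 matched. For a gene with several probe sets the one with the highest mean was kept, and 5350 genes reached a log2 value of 4 on 3 or more arrays and were tested.

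PI3K minus KD was fitted by limma 3.58.1 in R 4.3.3 (lmFit, eBayes, two-sided, no block), with p-values adjusted by Benjamini-Hochberg over all 5350 genes at 0.05. The fit was tested on simulated data with independent noise for each gene, which lacks the component that genes share on these arrays. Lists are described by counts and medians. The members, the lists and the array sides were chosen with earlier results of these data known. Named genes were the 5 highest and 5 lowest members of each subunit, non-overlapping members with an unadjusted p under 0.05, the members with the highest and lowest mean and with the 2 largest spreads, and the 2 genes of smallest p in each other list. MRPL16, MRP4, RSM28, MRPL24, MRPL25, MRPS16, MRPL39 and members without values of their own fall outside that rule and were chosen after their values were seen. Gene lengths come from the R64 table, and all 65 member lengths are multiples of 3. Alternatives were other filters, median-centring, quantile normalisation, the mean of probe sets, robust variances with a trend, a replicate block, weights for arrays, the array side, removal of a length trend (loess, span 0.5) and each array left out. Python 3.11.15 with matplotlib 3.10.9 drew the figures.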

Additional observations from a re-analysis of the deposited data

How the results depend on the processing

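No member was called under any alternative but array weights, where 32 were, among 2808 genes called; PI3K 1 and KD 2 then had weights of 5.02 and 5.75 and KD 3 of 0.154, and the large minus small median was -0.13. Elsewhere 40 genes passed with a replicate block, 185 with the array side as covariate, 34 with the length trend removed and 0 to 6 without single arrays (0 without KD 2, with 292 higher and 184 lower at an unadjusted p under 0.05 in limma). The same-numbered PI3K and KD arrays deviated with correlations of -0.486, 0.475 and 0.39, so the numbers were not taken as pairs; the block changed no call of a member. The median of members was -0.02 with quantile normalisation, -0.08 with array weights, -0.03 with the length trend removed, -0.09 without PI3K 2 and -0.05 without KD 3, and lay between -0.09 and 0.10 over the arrays left out. In that range the large subunit ran from -0.13 to 0.08, the small from -0.05 to 0.11 and large minus small from -0.13 to -0.02; within side A the last was 0.00. With the side as covariate MRPL37 (0.02), MRP2 (0.04), RSM22 (0.02), MRP21 (0.11) and RSM27 (0.27) turned positive, RSM27 also with median-centring (0.00) and the length trend removed (0.04), and MRPS12 turned negative with quantile normalisation (-0.05). Leaving out arrays turned MRPL37 (-0.35 to 0.01), MRPL19 (-0.31 to 0.01), MRP21 (-0.29 to 0.09), MRPS12 (-0.09 to 0.08) and RSM27 (-0.35 to 0.22). The cause of these changes was not tested. Signal over background cannot be judged from the deposited summaries.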

Other observations

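Genes that act upstream of the mitochondrial ribosome also showed no called difference in limma. Of 7 genes of mitochondrial transcription and genome maintenance 3 were higher, with a median log2 fold change of 0.00. MIP1, the mitochondrial DNA polymerase, was at -0.35 (SE 0.23) with overlapping groups, and MTF1, the transcription factor that works with the mitochondrial RNA polymerase, was at 0.16 (SE 0.11), with 8.91, 8.78 and 8.69 in PI3K and 8.66, 8.61 and 8.65 in KD. Of 8 regulators of mitochondrial genes 4 were higher, with a median of -0.07. HAP1, a heme-responsive activator, read 9.45, 9.47 and 9.47 in PI3K and 9.58, 9.83 and 9.90 in KD. Its groups did not overlap, and its log2 fold change was -0.30 (SE 0.12, limma adjusted p = 0.325), with -0.44 within side A and -0.23 within side B. HAP5, a subunit of the activator that binds CCAAT boxes, was at 0.32 (SE 0.18).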
